A study of Mus musculus with 14 samples.

Results

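Accessible regions that carried more signal in Dnmt3a-mutant than in wild-type MPP3 cells were followed through the other groups of an ATAC-seq study of mouse bone marrow. The set held 709 of 24627 tested regions, out of 705361 regions in the deposited table. It was chosen by measured values. The tested regions lie on chromosomes 1 to 19 and average 100 or more across the 14 libraries. Each library was scaled to a median of 200 over them, and y was log2(scaled signal + 4). A region entered the set when both MPP3 Dnmt3a libraries exceeded both MPP3 WT libraries and the mean of y differed by at least 1. The difference between MPP3 Dnmt3a and MPP3 WT is therefore given below as a description only. Tests were run on the 10 libraries of the other groups, which entered the choice only through the mean over 14 libraries. Over these 10 alone, 609 of the 709 regions and 23789 of all tested regions averaged 100 or more. The other selected regions stayed in every count. With the filter on the 10 alone, 679 regions met the rule, 609 of them shared. Comparisons called free of the selection use no library of the selecting contrast.

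In the study, whole marrow of young C57BL/6J donors was transplanted, 1000000 cells each, into young, lethally irradiated recipients of the CD45.1 type. All recipients received poly(I:C) 4 weeks later, tamoxifen after 4 more weeks, and marrow was taken 4 weeks after that for sorting of long-term haematopoietic stem cells (LT-HSC) and MPP3 progenitors. Donors were WT carrying Mx-Cre, Dnmt3a-flR878H/+ (Dnmt3a), Npm1-frt/+ (Npm1), or carriers of both alleles (called DN here, Dnmt3a;Npm1 in the plots). The labels name Mx-Cre for the WT donors only and do not say which recombinase acts on the frt allele. LT-HSC Dnmt3a and MPP3 DN had 1 library each and the other 6 groups had 2, lettered A and B. The labels do not tie A and B to different animals, and p-values therefore reflect variation among libraries that may be technical. They also do not say whether the sort separated donor from recipient cells. Because each library is a bulk sample, fewer cells with an open region and less opening per cell cannot be told apart.

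ATAC-seq marks open chromatin: a transposase inserts sequencing adapters where DNA is not wrapped in nucleosomes. DNMT3A adds methyl groups to cytosines in CpG dinucleotides, and R878H is the mouse counterpart of the common human leukaemia substitution in its catalytic domain. NPM1 is a nucleolar protein whose mutant form is held in the cytoplasm in acute myeloid leukaemia, where it often occurs together with mutant DNMT3A. MPP3 cells are multipotent progenitors that lean towards myeloid output, and LT-HSC are the cells that sustain blood formation over a lifetime. CpG-rich promoters are mostly free of methylation, while many CpG-poor promoters and distal sites are methylated in cells that do not use them.

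A few promoters inside the regions show the range of sequence in the set. Each is a 300-base window of RefSeq, build GRCm38.p6, running from 250 bases before to 50 bases after a transcript start, and lies wholly in a selected region. Capitals mark CpG dinucleotides. Hoxa5 (chr6:52204538-52204837, minus strand) is a homeodomain gene, and its window is shown because its signal went with the Dnmt3a allele in both cell types. The windows of Pax2 (chr19:44756656-44756955, plus strand), a kidney and brain patterning factor, and of Gm15609 (chr15:89523701-89524000, minus strand), a transcript within the synaptic scaffold gene Shank3, are CpG-rich. Those of Lcn2 (chr2:32387690-32387989, minus strand), which encodes the neutrophil granule protein lipocalin-2, and of 4931408D14Rik (chr19:37264046-37264345, minus strand), in the densest cluster of regions, hold few CpGs.
Hoxa5: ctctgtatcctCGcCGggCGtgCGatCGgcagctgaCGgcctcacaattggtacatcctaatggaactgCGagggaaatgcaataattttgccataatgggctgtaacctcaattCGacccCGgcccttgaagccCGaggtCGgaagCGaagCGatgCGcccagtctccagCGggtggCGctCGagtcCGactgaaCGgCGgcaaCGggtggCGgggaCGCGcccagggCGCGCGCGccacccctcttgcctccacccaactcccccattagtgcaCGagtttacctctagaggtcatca
Pax2: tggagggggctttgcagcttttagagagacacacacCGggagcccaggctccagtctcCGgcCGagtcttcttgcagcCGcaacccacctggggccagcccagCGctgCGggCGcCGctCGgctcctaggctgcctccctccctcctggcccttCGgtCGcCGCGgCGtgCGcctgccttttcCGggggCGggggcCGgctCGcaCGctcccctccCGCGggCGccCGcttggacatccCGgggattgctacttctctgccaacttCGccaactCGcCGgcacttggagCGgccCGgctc
Gm15609: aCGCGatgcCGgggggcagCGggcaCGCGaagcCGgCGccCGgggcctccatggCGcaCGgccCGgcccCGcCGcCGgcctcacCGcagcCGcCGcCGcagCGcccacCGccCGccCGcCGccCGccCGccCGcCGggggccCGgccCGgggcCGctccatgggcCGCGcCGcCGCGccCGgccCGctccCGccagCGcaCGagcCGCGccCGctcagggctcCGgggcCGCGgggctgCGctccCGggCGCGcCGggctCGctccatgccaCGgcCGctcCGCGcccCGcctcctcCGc
Lcn2: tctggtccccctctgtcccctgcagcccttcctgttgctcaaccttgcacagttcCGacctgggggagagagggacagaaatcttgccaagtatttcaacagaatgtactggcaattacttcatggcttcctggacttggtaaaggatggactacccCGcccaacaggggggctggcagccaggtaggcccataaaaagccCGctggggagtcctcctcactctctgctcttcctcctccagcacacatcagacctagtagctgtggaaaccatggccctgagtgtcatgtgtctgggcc
4931408D14Rik: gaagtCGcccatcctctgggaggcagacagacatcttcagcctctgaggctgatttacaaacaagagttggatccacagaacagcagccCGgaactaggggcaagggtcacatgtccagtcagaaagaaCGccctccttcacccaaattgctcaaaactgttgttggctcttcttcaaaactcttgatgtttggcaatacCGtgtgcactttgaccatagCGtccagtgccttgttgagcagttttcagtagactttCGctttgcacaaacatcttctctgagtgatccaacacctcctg
The Hoxa5 window held 29 CpGs at 61.7% G+C, that of Pax2 30 at 71.7% and that of Gm15609 59 at 88.0%. The Lcn2 window held 3 CpGs at 56.3% G+C and that of 4931408D14Rik 6 at 49.0%.

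A promoter window overlapped 93 of the 709 regions (13.1%) and 40.0% of all tested regions. Most of that gap went with signal level: among regions with a mean value of 100 to 150 the shares were 11.8% and 14.2%. The 107 windows concerned had a median of 15 CpGs, against 22 in the 13252 windows of all tested regions and 7 in all 32851 windows of the table. By a cut of at least 55% G+C and an observed-to-expected CpG ratio of at least 0.65, 39.3% of the 107 were CpG-rich, against 62.1% of windows in tested regions and 28.1% of all windows. Searching both strands for the ETS core GGAAGT found it in 14.0% of the 107 windows, in 27.4% of windows in tested regions and in 23.8% of all windows. The GC box GGGCGG was present in 57.0%, 67.3% and 35.7% of the same 3 sets, and the RUNX core TGTGGT in 8.41%, 11.8% and 16.8%. The GATA core AGATAA was present in 3.74%, 5.25% and 11.2%, and the AP-1 site TGANTCA in 6.54%, 4.32% and 7.81%. These are matches of letters in 1 window per start and not sites of binding. Unlike the overlap shares, the CpG and motif shares were not compared at like signal level.

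Regions inside genes and away from their ends were the most frequent kind. Of the 709 regions, 350 (49.4%) were inside a gene and over 1 kb from a gene end, 229 (32.3%) were within 1 kb of a gene end, and 130 (18.3%) were outside genes and over 1 kb away. Over all tested regions 55.4% were within 1 kb of a gene end. The regions were low in signal, with a median mean value of 123 against 198 over all tested regions, and wide, at a median of 1579 bp against 1366 bp. Where only regions with a mean value of 100 to 150 were counted, 28.7% of 536 selected and 31.6% of 8352 tested regions were within 1 kb of a gene end, against 32.3% and 55.4% at any level. A region was named for the gene it lay in or the nearest within 100000 bp, which is a label of position only. By this label 645 genes were concerned, and 1 region had none.

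The median scaled signal of the set was 221 and 223 in the MPP3 Dnmt3a libraries and 109 and 70.3 in MPP3 WT, which the selection fixed. Among MPP3 libraries outside the selecting contrast, the median was 109 and 83.5 in Npm1 and 110 in DN. In LT-HSC it was 102 and 139 in WT, 111 in Dnmt3a, 137 and 122 in DN, and 208 and 239 in Npm1. The set was thus as high in LT-HSC Npm1 as in the group that chose it, and near the WT range in every other group that carried the Dnmt3a allele. LT-HSC Npm1 A and B reached at least the lower MPP3 Dnmt3a library in 429 (60.5%) and 492 (69.4%) of the regions, near the 63.1% and 62.8% of all tested regions in the same libraries. MPP3 DN did so in 66 (9.31%, against 77.0% of all tested regions) and LT-HSC Dnmt3a in 87 (12.3%, against 74.2%). For MPP3 Npm1 A and B the counts were 56 and 8 (7.90% and 1.13%, against 76.9% and 77.0%). The selection required high values in MPP3 Dnmt3a, so the lower shares in the set are a description only.

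**Figure D1:**
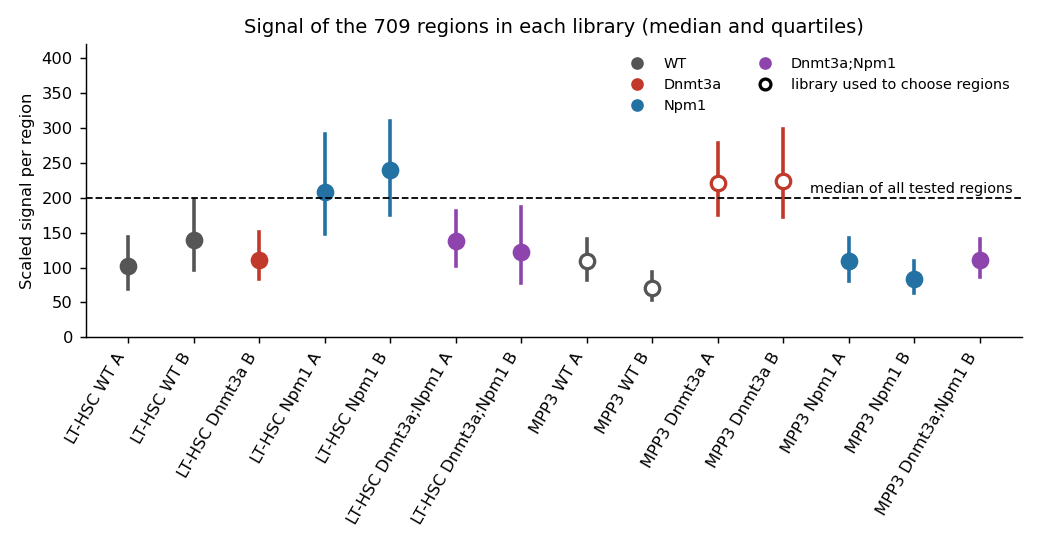
Median (points) and quartiles (lines) of scaled signal over the 709 regions in each of 14 libraries, with the median of all tested regions (200) dashed and open points for the libraries that chose the set. LT-HSC Npm1 (208 and 239) sits beside MPP3 Dnmt3a (221 and 223), and MPP3 DN (110) sits with MPP3 Npm1.

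The level of the set also went with how concentrated each library's signal was. The tested regions held 15.1% and 18.8% of all signal in the LT-HSC Npm1 libraries and 21.6% and 26.0% in MPP3 Dnmt3a, the lowest shares of the 14, and these 4 libraries had the highest medians over the set. MPP3 WT B had the largest share, 50.7%, and the lowest median, 70.3, while MPP3 WT A had 29.2% and 109. The other 8 libraries lay between 29.5% and 44.0%. Reads in regions could be recovered from the step between values in 8 libraries, and, in units of 1000000 reads, were 7.32 in MPP3 Dnmt3a A, 9.98 in MPP3 Dnmt3a B, 7.57 in LT-HSC Npm1 A and 10.9 to 18.3 in the other 5. Depth is unknown in the remaining 6. A low share of reads in peaks is a common measure of weak enrichment in ATAC-seq. The share here is a different measure: signal in tested regions over signal in all regions of the deposited table. The part of library quality in the selection was not tested. A fit with the tested-region share as a covariate, over the 10 libraries outside the selecting contrast, is given beside the comparisons it changed. In each of these the share went with the groups compared, so the fit cannot tell the share and the groups apart.

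**Figure D2:**
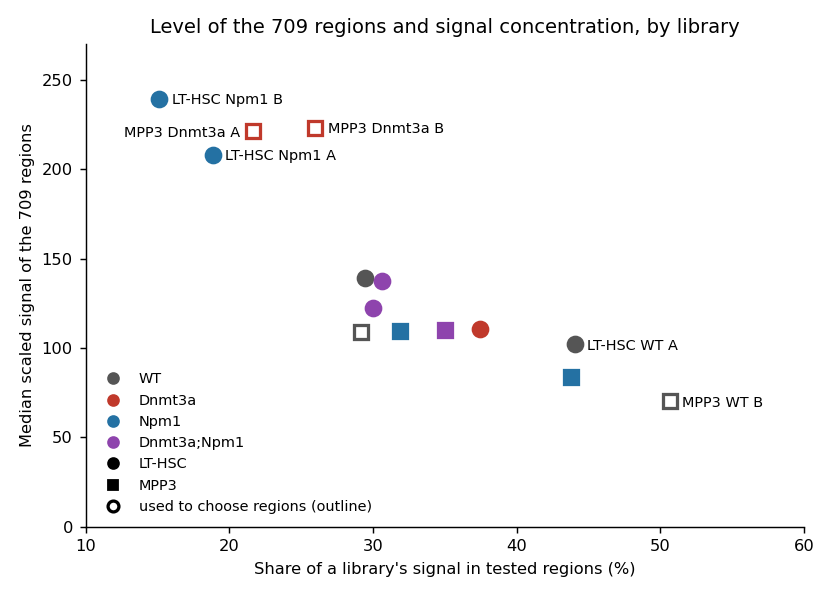
Median scaled signal of the 709 regions (vertical) against the percent of each library's signal that lies in tested regions (horizontal), for 14 libraries coloured by genotype, with circles for LT-HSC, squares for MPP3 and outlines for the libraries that chose the set. The 4 libraries with the lowest shares, 15.1% to 26.0%, have medians of 208 to 239, and the library with the highest share, 50.7%, has the lowest median, 70.3.

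Differences in the selecting contrast ran from 1.00 to 2.94 on the log2 scale, with a median of 1.23, and 27 regions reached 2. The region of largest difference lay in Tafa5, which encodes a secreted neurokine (chr15:87563824-87565902, mm10, 19605 bp from the nearer gene end). It held 197 and 357 in MPP3 Dnmt3a, 67.1 and 13.3 in MPP3 WT, 85.9 and 60.1 in MPP3 Npm1 and 141 in MPP3 DN. Its LT-HSC values were 40.6 and 139 in WT, 39.5 in Dnmt3a, 172 and 239 in Npm1 and 91.9 and 164 in DN. MPP3 DN was above both MPP3 Npm1 libraries here, and LT-HSC Dnmt3a was below both LT-HSC WT libraries.

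A region in Ide, the gene for insulin-degrading enzyme (chr19:37303914-37305434), followed at 2.42. It held 302 and 434 in MPP3 Dnmt3a against 106 and 38.5 in MPP3 WT, and 115, 59.3 and 101 in MPP3 Npm1 A, B and DN. In LT-HSC it held 59.2 and 159 in WT, 54.1 in Dnmt3a, 291 and 276 in Npm1 and 93.0 and 57.3 in DN. Both LT-HSC Npm1 libraries were above every other LT-HSC library.

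Regions in Sdc3, encoding the heparan sulphate proteoglycan syndecan-3 (chr4:130816368-130818730), and in St8sia3, encoding a sialyltransferase (chr18:64264848-64266911), differed by 2.42 and 2.41. The Sdc3 region held 197 and 504 in MPP3 Dnmt3a, 113 and 26.7 in MPP3 WT, 81.2 and 24.9 in MPP3 Npm1 and 20.5 in MPP3 DN. MPP3 DN was the lowest of the 7 MPP3 libraries at Sdc3. The St8sia3 region held 218 and 520 in MPP3 Dnmt3a and 142, 68.9 and 98.5 in MPP3 Npm1 A, B and DN, so the carrier of both alleles lay inside the Npm1 range.

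Counting 1 region per gene, the next largest differences were 18194 bp from Mir101c (2.39) and at Gm41696 (2.37), 4931408D14Rik (2.28), Acbd4 (2.26), Tmem104 (2.24), Gm40034 (2.22), Fbxw4 (2.22) and Slc38a10 (2.20). Second regions at Ide (chr19:37350267-37352454, 2.38) and near Mir101c (chr9:3004418-3005253, 2.29) were of the same size. Acbd4 encodes an acyl-CoA binding protein, Fbxw4 an F-box protein and Slc38a10 an amino acid transporter. Within 1 kb of a gene end, the largest after Gm41696, 4931408D14Rik and Gm40034 were Shank3 (2.16), Elobl (2.02), Coro1b (1.97), which encodes the actin regulator coronin-1B, a further 4931408D14Rik region (1.95) and Gm32492 (1.94). At the threshold, Fbn2, Copg2 and Mknk2 were just inside, at 1.00 each, and Cyth1, Rmi2 and Slc45a4 just outside, at 0.999 each. The Mknk2 region held 184 and 165 in MPP3 Dnmt3a and 130 and 54.9 in MPP3 WT, and the Cyth1 region held 176 and 272 against 116 and 99.0. In all 177 regions lay between 1 and 1.1, and 241 more that met the order requirement lay between 0.9 and 1.

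Whether the Dnmt3a allele had the same effect beside the Npm1 allele was asked by comparing MPP3 DN with MPP3 Npm1, which shares no library with the selecting contrast. No selected region was called at an adjusted p under 0.05 (limma, Benjamini-Hochberg over all 24627 regions), and the share was 0% over all tested regions. Before adjustment, 18 of the regions had p under 0.05 and were higher (2.54%, against 0.56% of all tested) and 4 lower (0.564%, against 0.41%). The median log2 difference of the set was 0.20, against -0.03 for all tested regions, and 65.7% of the set was positive against 46.2%. This shift rested on MPP3 Npm1 B: without that library the median was -0.02 (0.01 over all tested regions), and without MPP3 Npm1 A it was 0.38. The MPP3 DN library was above both MPP3 Npm1 libraries in 321 regions (45.3%), against 31.6% of all tested regions. MPP3 DN had 1 library, and its spread was taken to be that of the other groups.

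The smallest p in this comparison belonged to regions at Tmem267 and Hoxa5, neither past the threshold. The Tmem267 region (chr13:119597609-119598348), in a gene for a membrane protein, held 269 in MPP3 DN and 65.9 and 63.0 in MPP3 Npm1, a log2 difference of 2.00 (SE 0.44). In MPP3 Dnmt3a it held 550 and 332 and in MPP3 WT 253 and 99.0. In LT-HSC the order was the opposite, with 150 in Dnmt3a against 199 and 336 in WT, and 249 and 278 in DN against 469 and 625 in Npm1. Of the regions lower in MPP3 DN, also not past the threshold, the smallest p-values were near Rpn1, encoding a subunit of the oligosaccharyltransferase (-1.59, SE 0.67), and in Nbeal2, a gene needed for platelet alpha granules (-1.40, SE 0.62).

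The Hoxa5 region (chr6:52203222-52204967) covers the promoter printed above. It held 268 and 255 in MPP3 Dnmt3a against 130 and 120 in MPP3 WT, and 251 in MPP3 DN against 69.4 and 70.3 in MPP3 Npm1. In LT-HSC it held 372 in Dnmt3a against 179 and 210 in WT, and 355 and 278 in DN against 246 and 273 in Npm1. Carriers of the Dnmt3a allele were above non-carriers of the same cell type and Npm1 status in every case. The margin was narrow in LT-HSC DN, where 278 stands beside 273 in Npm1. The log2 differences free of the selection were 1.79 (SE 0.43) for MPP3 DN against Npm1, 0.93 (SE 0.43) for LT-HSC Dnmt3a against WT and 0.27 (SE 0.35) for LT-HSC DN against Npm1. None of the 3 passed the threshold, with limma adjusted p-values of 1.0, 1.0 and 0.66. Hoxa5 was singled out after its values were seen.

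This order over the 3 comparisons free of the selection was rare in the set. It held for 2 of the 709 regions (0.282%), Hoxa5 and a region at Foxf1, a lung and gut mesenchyme factor (chr8:121083493-121085298), and for 2.68% of all tested regions. The Foxf1 region held 187 in MPP3 DN against 132 and 125 in MPP3 Npm1. In LT-HSC it held 153 in Dnmt3a against 138 and 96.9 in WT, and 248 and 295 in DN against 222 and 239 in Npm1. The order was looked for after these data were seen.

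**Figure D3:**
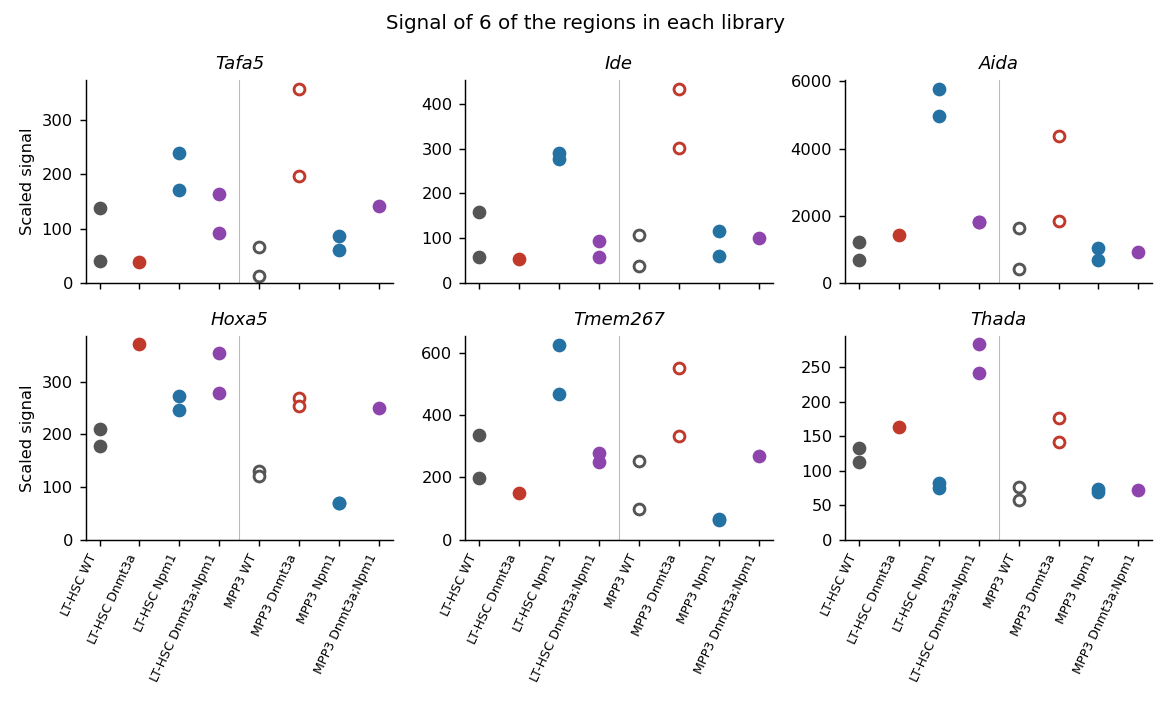
Scaled signal of 6 regions, named by gene, in each library by group (WT grey, Dnmt3a red, Npm1 blue, Dnmt3a;Npm1 purple, open points for the libraries that chose the set). At Hoxa5 the Dnmt3a carriers are above the non-carriers in both cell types. At Ide and Aida the LT-HSC Npm1 libraries are above the other LT-HSC libraries, and at Thada the LT-HSC Dnmt3a;Npm1 libraries are.

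In LT-HSC, the Dnmt3a library was compared with WT. Calls numbered 0 in the set and 0% of tested regions (limma). Without adjustment, p was under 0.05 for 30 regions, of which 13 were higher (1.83%, against 0.776% of all tested) and 17 lower (2.40%, against 0.918%). The median log2 difference of the set was -0.02, against 0.06 for all tested regions, and it was -0.25 without LT-HSC WT A and 0.12 without LT-HSC WT B. LT-HSC Dnmt3a was above both LT-HSC WT libraries in 186 regions (26.2%), below the 33.8% of all tested regions. LT-HSC Dnmt3a had 1 library, and 0 calls do not show that the groups were alike.

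The regions of smallest p here were not past the threshold either. A region in LOC100043315 (chr15:95135174-95137561) held 216 in LT-HSC Dnmt3a against 38.9 and 78.3 in WT, a difference of 1.89 (SE 0.52). One in Krt78, a keratin gene (chr15:101973103-101974147), held 205 against 50.1 and 17.5 (2.62, SE 0.72). In the other direction, a region at Inka2, which encodes an inhibitor of the kinase PAK4, held 13.7 against 108 and 114 (-2.70, SE 0.84), and one at an end of Pitpnm3, a lipid transfer gene, held 86.7 against 205 and 399 (-1.68, SE 0.56). Single libraries set these values.

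The set was higher in LT-HSC with the Npm1 allele alone than in WT, in libraries that also differed in their share of signal in tested regions (15.1% and 18.8% against 44.0% and 29.5%). In LT-HSC Npm1 against WT, 133 of the 709 regions were called higher (18.8%, limma adjusted p under 0.05), against 3.07% of all tested regions, and 0 were called lower, against 7.22%. At an unadjusted p under 0.05, 289 regions were higher (40.8%, against 9.33% of all tested) and 2 lower (0.282%, against 19.2%). The median log2 difference was 0.86, against -0.16 for all tested regions, and 89.7% of the set was positive. Both Npm1 libraries were above both WT libraries in 436 regions (61.5%), against 21.2% of all tested regions.

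The calls of smallest p were at Aida, Gm16505 and Gm48310. The Aida region (chr1:183298969-183299710), in a gene for an axin-interacting protein, held 4976 and 5783 in LT-HSC Npm1 against 690 and 1230 in WT, a difference of 2.54 (SE 0.28, limma adjusted p = 7.4e-05). Gm16505 held 1218 and 1321 against 154 and 181 (2.90, SE 0.35), and Gm48310 held 2095 and 1592 against 326 and 395 (2.34, SE 0.28). The groups did not overlap at any of the 3. The Lcn2 region (chr2:32385783-32388407) was also called higher, at 404 and 330 against 158 and 9.28 (2.99, SE 0.72, adjusted p = 0.015), a comparison in which 1 WT library was close to 0.

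Calls in this comparison depended on the measures of library make-up. With the share of signal in tested regions as a covariate, 0 of the 709 regions and 0 of all tested regions were called, and the median of the set fell from 0.86 to 0.28. Scaled to the library total, the set had a median of -0.13 and all tested regions one of -1.15, with 48 regions called higher and 37 lower. Over all 24627 tested regions the same scaling called 160 higher and 12787 lower. Fewer regions were called higher, in the set and over all tested regions, when any 1 LT-HSC WT or Npm1 library was left out. The median of the set was 0.62 without LT-HSC WT A and 1.03 without LT-HSC WT B. It was 0.99 without LT-HSC Npm1 A and 0.81 without LT-HSC Npm1 B.

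When the Dnmt3a allele was added to the Npm1 allele in LT-HSC (DN against Npm1), the set was lower. Of the 709 regions, 74 were called lower (10.4%), against 1.41% of all tested regions, and 1 was called higher (0.141%), against 4.57% (limma). The median was -0.77, against 0.12 for all tested regions, and both DN libraries were above both Npm1 libraries in 19 regions (2.68%), against 30.5%. This comparison uses the same LT-HSC Npm1 libraries as the one with WT, so the pair are not independent. No region, in the set or over all tested regions, was called with the share of signal as a covariate or without LT-HSC DN B. Fewer were called lower, in the set and over all tested regions, without LT-HSC Npm1 A or B, and more without LT-HSC DN A. The median of the set was -0.87 and -0.70 without LT-HSC Npm1 A and B, and -0.81 and -0.66 without LT-HSC DN A and B.

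The lowest p-values were at a region 37869 bp from Mir101c (chr9:2999994-3000800; -2.39, SE 0.35), at Gm48310 (-1.88, SE 0.28) and at Gm33838 (-2.24, SE 0.36). The Mir101c region held 361 and 571 in LT-HSC DN against 2493 and 2313 in Npm1, and 264 and 530 in WT, so the DN libraries lay in the range of WT and just above it. Thada, a gene at translocation breakpoints in thyroid tumours, had the region called higher (chr17:84419354-84420332). It held 241 and 284 in LT-HSC DN against 74.7 and 81.7 in Npm1 (1.69, SE 0.45, limma adjusted p = 0.033), 132 and 112 in WT and 164 in Dnmt3a. In MPP3 the Thada region held 176 and 141 in Dnmt3a, 75.9 and 57.4 in WT, 69.4 and 73.3 in Npm1 and 71.2 in DN. The Thada call was lost without LT-HSC Npm1 A and without LT-HSC DN B.

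LT-HSC DN against LT-HSC WT gave no call in the set and 0% in all tested regions (limma). Before adjustment, 67 regions had p under 0.05 and were higher (9.45%, against 3.43% of all tested) and 21 lower (2.96%, against 3.57%). The median was 0.10 against -0.03. It turned to -0.10 without LT-HSC WT A and to -0.13 when scaled to library totals. Without LT-HSC DN A the median of the set was 0.06, against -0.02 for all tested regions. That fit gave calls in both directions, in the set and over all tested regions. Both DN libraries were above both WT libraries in 152 regions (21.4%, against 14.7%). A region in Ptpre, a receptor phosphatase gene, held 151 and 120 in DN against 27.6 and 19.6 in WT (2.34, SE 0.59), and one in B4galt6, for a glycosphingolipid enzyme, held 137 and 218 against 83.4 and 13.4 (2.18, SE 0.61). Among the lower regions the smallest p-values were in Ripor2 (-1.87, SE 0.53) and Arhgap23 (-1.62, SE 0.48). None of these 4 passed the threshold.

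Between cell types, in carriers of the Npm1 allele with the DN and Npm1 effects averaged, the set was lower in MPP3 than in LT-HSC. Of the 709 regions, 80 were called lower (11.3%), against 1.19% of all tested regions, and 0 were called higher, against 1.81% (limma). The median was -0.64, against 0.20 for all tested regions. LT-HSC Npm1 against WT and LT-HSC DN against Npm1 use the same LT-HSC Npm1 libraries, so this comparison is not independent of them. The median scaled signal of the set was 109 and 83.5 in MPP3 Npm1 against 208 and 239 in LT-HSC Npm1. In DN it was 110 in MPP3 against 137 and 122 in LT-HSC. The lowest p-values were at Aida (-1.80, SE 0.22), Gm5960 (-1.81, SE 0.24) and Gm40034 (-2.35, SE 0.30). Aida and Gm5960 were among the regions of very high signal, with mean values of 1531 and 3804. At Gm40034 the values were 182, 80.6 and 185 in MPP3 Npm1 A, B and DN, against 1154, 1744, 363 and 513 in LT-HSC Npm1 A and B and DN A and B, with no overlap. No region was called with the share of signal as a covariate. More regions were called lower, in the set and over all tested regions, without LT-HSC DN A. Fewer were called lower in both without any other 1 library of a group of 2. The median of the set ran from -0.74 without MPP3 Npm1 A to -0.53 without MPP3 Npm1 B.

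The difference between the Dnmt3a effects in MPP3 and in LT-HSC, both within Npm1 carriers, had a median of 0.94 in the set and -0.15 over all tested regions. No region was called and 0% of tested regions were (limma, smallest adjusted p 0.16), while 165 regions were higher at an unadjusted p under 0.05 (23.3%, against 3.65%) and 2 were lower (0.282%, against 8.41%). This contrast contains LT-HSC DN minus LT-HSC Npm1, which had a median of -0.77 in the set, beside 0.20 for its MPP3 part. The smallest p-values were at Tmem267 (3.03, SE 0.57) and the Mir101c region above (3.02, SE 0.56) for higher, and at Thada (-1.69, SE 0.71) and Stk16 (-1.22, SE 0.58) for lower.

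**Figure D4:**
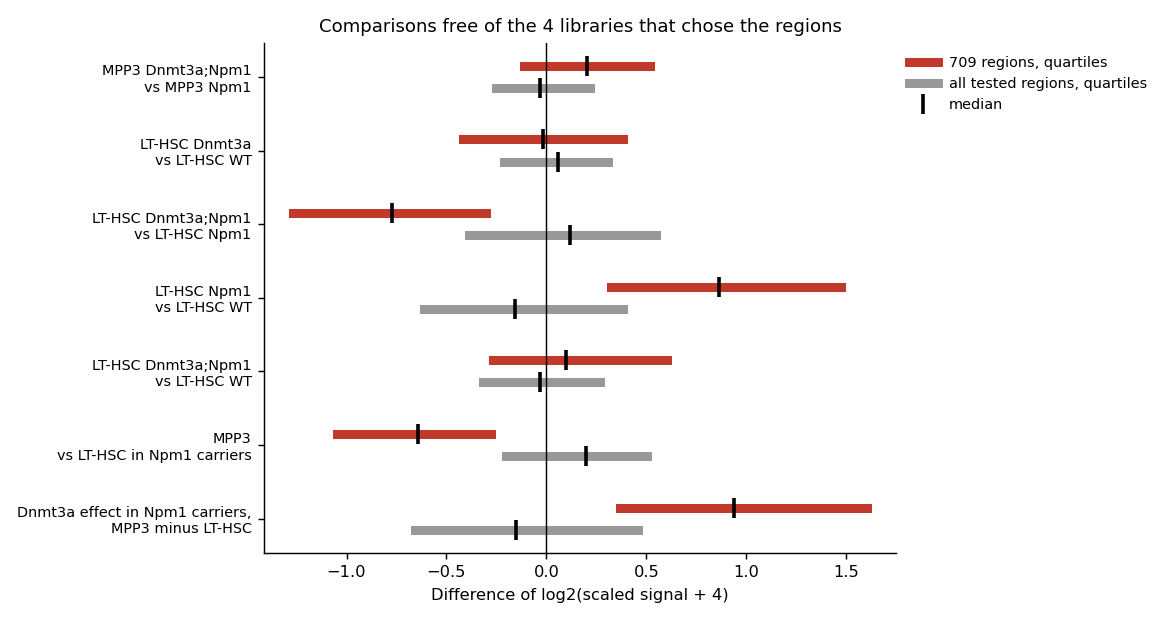
Median (ticks) and quartiles (bars) of log2 differences over the 709 regions (red) and all tested regions (grey), for the 7 comparisons that use none of the 4 libraries that chose the set. The set stands above all tested regions in LT-HSC Npm1 against WT (0.86 and -0.16) and below them in LT-HSC Dnmt3a;Npm1 against Npm1 (-0.77 and 0.12).

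Gene lists for blood cells, the marrow niche, other tissues and pathways of leukaemia were set beside the set. Of 13 lists with 289 genes and 415 tested regions, 17 regions (4.1%) were selected, against 2.88% of all tested regions, in a contrast that the selection used. The lists for T and NK cells (22 tested regions), mast cells, basophils and eosinophils (9), DNA methylation (27) and genes that cooperate in leukaemia (45) held none. Neutrophil and monocyte genes gave 1 of 40 (Lcn2), B cell genes 1 of 11 (Pax5, the B lineage factor), erythroid genes 1 of 30 (Ermap), megakaryocyte genes 1 of 32 (Fli1, an ETS factor) and interferon genes 1 of 25 (Ifngr1, a receptor chain). Stem cell genes gave 2 of 86 (Mecom and Msi2), marrow niche genes 3 of 25 (Col1a1, Pecam1 and Lpl), factors of other tissues 3 of 59 (Pax2, Pax8 and Foxa1) and Hox and Meis genes 4 of 39. Hoxa9, Hoxa10, Meis1, Cebpa, Dnmt3a and Npm1 had tested regions, none of which was selected.

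In comparisons free of the selection, of the regions named from these lists only that at Lcn2 was called in LT-HSC Npm1 against WT. The Ermap region, a red cell membrane antigen gene (chr4:119186837-119188826), was called lower in LT-HSC DN than in Npm1, at 118 and 44.1 against 222 and 279 (-1.73, SE 0.49, limma adjusted p = 0.043). In MPP3 it held 252 and 105 in Dnmt3a, 62 and 54.9 in WT, 118 and 67.4 in Npm1 and 126 in DN. The Pax2 region (chr19:44756201-44758098) was called lower in MPP3 than in LT-HSC (-1.30, SE 0.32, limma adjusted p = 0.037), at 154, 81.3 and 127 in MPP3 Npm1 A, B and DN against 311, 338, 218 and 354 in LT-HSC. Hoxa5 was called lower in MPP3 as well (-1.08, SE 0.28, adjusted p = 0.043), although MPP3 DN, at 251, was above 1 of the 4 LT-HSC libraries compared.

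The stem cell gene Mecom, for the EVI1 factor, had a selected region (chr3:30504216-30505322) with 158 and 223 in MPP3 Dnmt3a and 84.8 and 80.5 in MPP3 WT. It held 77.6, 61.5 and 100.5 in MPP3 Npm1 A, B and DN, and 95.2 and 67.0 in WT, 106 in Dnmt3a, 50.5 and 161 in Npm1 and 86.5 and 140 in DN LT-HSC. The groups not used for selection overlapped in LT-HSC, apart from the Dnmt3a library, which was above both WT libraries. The Msi2 region, in a gene for an RNA-binding protein of stem cells, rested on 1 library: MPP3 Dnmt3a B held 399 and A 115, and MPP3 WT held 82.3 and 57.4.

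Hox clusters gave more regions than the lists show, since the Hox and Meis list left out the Hoxc and Hoxd genes. Over all Hox genes, which was counted after the data were seen, 9 of 37 tested regions were selected, against 2.88% of all tested regions. They were 1 of 14 at Hoxa, 3 of 12 at Hoxb, 4 of 7 at Hoxc and 1 of 4 at Hoxd. The selected share was 5.43% over chromosome 11, which holds Hoxb, and 3.46% over chromosome 15, which holds Hoxc. Hox genes encode homeodomain factors that give position along the body axis, and Hoxa and Hoxb members are also used in blood stem cells. The 4 Hoxc regions, at Hoxc13, Hoxc11, Hoxc5 and Hoxc4, lay within 116156 bp. At Hoxc13 (chr15:102920149-102922334) the signal was 239 and 249 in MPP3 Dnmt3a, 162 and 72.3 in MPP3 WT, 126 and 69.6 in MPP3 Npm1 and 169 in MPP3 DN. LT-HSC values at Hoxc13 were 151 and 173 in WT, 134 in Dnmt3a, 348 and 409 in Npm1 and 140 and 164 in DN, so the LT-HSC Npm1 libraries stood above the rest. At Hoxd10 (chr2:74691143-74693308) the same libraries held 527 and 344, against 137 and 67.0 in WT and 120 and 81.1 in DN. The 3 Hoxb regions lay within 18066 bp, and the Hoxb6 region held 268 and 272 in MPP3 Dnmt3a, 128 and 68.2 in MPP3 WT, 100 and 107 in MPP3 Npm1 and 141 in MPP3 DN. At Hoxb6 the LT-HSC Npm1 libraries (212 and 245) overlapped those of WT (236 and 195).

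Regions of the set were unevenly spread over chromosomes. Chromosome 11 held 123 (17.3%) against 9.20% of all tested regions, chromosome 18 held 57 (8.04%) against 2.84%, chromosome 19 held 44 (6.21%) against 3.67% and chromosome 10 held 50 (7.05%) against 5.04%. Chromosome 14 had 8 (1.13%) against 3.18%. Under the reverse rule, which selects regions lower in MPP3 Dnmt3a, 2 of 1044 regions lay on chromosome 18.

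The MPP3 Dnmt3a B library was uneven in the same way outside the tested regions. Over 632026 regions with a mean value under 50, which cannot be selected, its share of signal on chromosome 18 was 0.78 above that of the median library on the log2 scale, on chromosome 11 it was 0.40 above and on chromosome 10 it was 0.30 above. On chromosome 15 it was 0.25 above. On chromosomes 5 and 17 the difference was -0.38 and -0.37. MPP3 Dnmt3a A stayed between -0.07 and 0.07 on every chromosome. In the set, B was above A in 39 of 57 regions on chromosome 18 and 79 of 123 on chromosome 11, and in 234 of 529 elsewhere. All tested regions went the same way: their medians in A and B were 213 and 283 on chromosome 18 and 205 and 244 on chromosome 11. Elsewhere they were 200 and 193. With MPP3 Dnmt3a B left out, 1477 regions met the rule, of which 10.4% were on chromosome 11 and 3.79% on chromosome 18. Without A, the shares were 19.5% and 9.59% of 1262. Scaling each chromosome of each library to its own median, an alternative chosen after seeing the data, kept 578 of the 709 regions, with 11.6% of its 644 regions on chromosome 11 and 2.17% on chromosome 18. LT-HSC DN B was uneven as well, from -0.59 on chromosome 18 and -0.57 on chromosome 11 to 0.55 on chromosome 1. In LT-HSC DN against Npm1 the set had a median of -0.91 on chromosomes 11 and 18 and -0.73 on the others. In LT-HSC DN against WT the same medians were -0.09 and 0.21. The reason for the uneven shares of MPP3 Dnmt3a B and LT-HSC DN B was not tested.

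**Figure D5:**
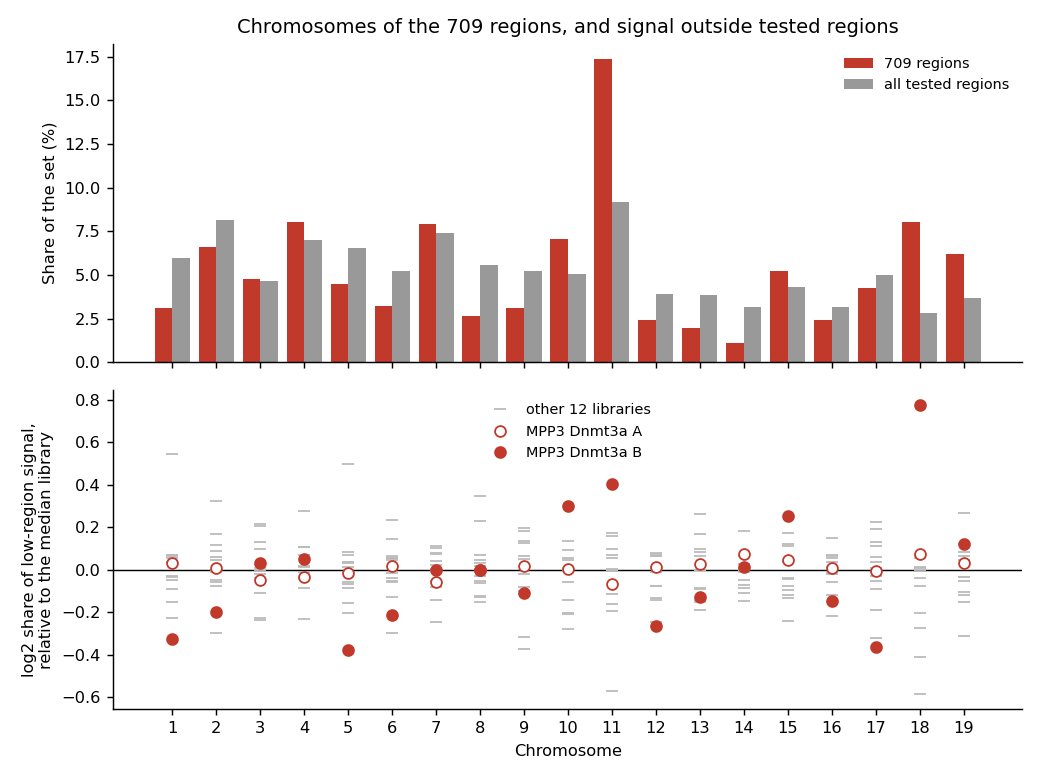
Upper panel: percent of the 709 regions (red) and of all tested regions (grey) on each chromosome. Lower panel: log2 share of signal over regions with a mean value under 50, relative to the median library, for MPP3 Dnmt3a A (open), MPP3 Dnmt3a B (filled) and the other 12 libraries (ticks). Chromosomes 11 and 18 stand out in the set (17.3% and 8.04%), and library B stands out there in the lower panel (0.40 and 0.78).

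The densest cluster was on chromosome 19. Members at most 100000 bp apart formed 26 chains of 3 or more, with 107 of the 709 regions, and 474 regions had no such neighbour. The chain at Ide, Kif11, 4931408D14Rik and Gm9056 (chr19:37238609-37378547) held 11 of the 14 tested regions in its 139939 bp. Kif11 encodes a mitotic kinesin. The median over these 11 was 260 and 290 in MPP3 Dnmt3a, 106 and 38.5 in MPP3 WT, 109 and 67.4 in MPP3 Npm1 and 105 in MPP3 DN. In LT-HSC it was 319 and 479 in Npm1, and 77.8 and 117 in WT, 115 in Dnmt3a, and 130 and 152 in DN. The 4 libraries with the highest medians were again those with the lowest share of signal in tested regions.

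Signal below the test threshold was also raised along this stretch in every library. Over 124 untested regions inside it, the median was 1.40 to 2.78 times that of 17163 untested regions elsewhere on chromosome 19. MPP3 Dnmt3a A had the largest ratio, 2.78, followed by MPP3 DN at 2.54, and MPP3 WT A the smallest, 1.40. MPP3 Dnmt3a B, at 2.21, lay among the LT-HSC and Npm1 libraries. Other chains of 6 lay near Mir101c on chromosome 9, at Itgb4, Unk, Unc13d, Trim47 and Fbf1 on chromosome 11, and at Tcof1, Arsi and Slc6a7 on chromosome 18.

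The set also held a few regions of very high signal. Of the 709, 6 had a mean value of at least 1000: those at Gm33780, Sfi1, Gm33838, Chl1, Gm5960 and Aida. They were 6 of 304 tested regions at that level, while 2.88% of all tested regions were selected. The Gm33780 region (chr2:98665980-98667613) had a mean of 82134. It held 267732 and 89490 in MPP3 Dnmt3a, 80643 and 22467 in MPP3 WT, 59027 and 30728 in MPP3 Npm1 and 56246 in MPP3 DN. In LT-HSC it held 357541 and 292237 in Npm1 against 35368 and 70545 in WT. All 6 were higher in MPP3 Dnmt3a A than in B, and all 6 were called higher in LT-HSC Npm1 than in WT. The median difference of these 6 in that comparison was 2.47, against 0.85 for the other 703 regions. A second group, which shares the Sfi1 region, lay near the first sequenced bases of a chromosome, where mouse assemblies hold repeats. Of the 116 tested regions that start before base 3500000, 14 were selected, against 2.88% of all tested regions. They include the Mir101c, Gm16505 and Gm48310 regions named above. No list of problem regions was applied here, and mapping to repeats was not tested. Leaving out the 6 regions of highest signal left 127 of 703 called higher in LT-HSC Npm1 than in WT. The other regions near chromosome starts stayed in that count.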

How the data were processed

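Per the labels, nuclei were transposed and the DNA was amplified by PCR. The deposited table gives whole-number signal values for 705361 regions of build mm10, 1 column per library, scaled by the authors by a factor that is not given in the sources used here, nor are the aligner and peak caller. The submitters' processing notes name R 3.6.0, HOMER 4.10, edgeR 3.26.4 and DiffBind 2.12.0, without their roles. Values are not counts, so no count test was run. Columns were matched to samples by library number. Regions on chromosomes 1 to 19 with a mean of at least 100 were tested, scaled to a median of 200 per library, and log2(scaled signal + 4) of 10 libraries was fitted in limma 3.58.1 (R 4.3.3) with group means and a robust trended prior. The 4 libraries of the selecting contrast stayed out. A region was called when its two-sided p, adjusted by Benjamini-Hochberg over 24627 regions, was under 0.05. A difference on this scale understates changes of low regions.

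The members, the gene lists and the comparisons were chosen with earlier results of these data known. Regions were named by the RefSeq table of GRCm38.p6, the same assembly as mm10, which gives no strand. Named were the 12 regions of largest difference with 1 per gene, 8 near gene ends, up to 3 per list, up to 3 called regions per direction and comparison (2 of smallest p where none was called), and 3 on each side of the threshold. Exceptions chosen after their values were seen were Foxf1, the Hoxc and Hoxd regions, the promoter windows of Hoxa5 for printing, Kif11 and the other chains, and the regions of highest signal. Alternatives were other scalings, pseudocounts and filters, all 14 libraries, a covariate, a replicate block and leaving out each library.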

Additional observations from a re-analysis of the deposited data

How the results depend on the processing

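Results rested on libraries and scaling more than on pseudocounts. The number of selected regions was 1064 with TMM scaling, 116 with library totals (where the median of all tested regions moved from -0.15 to -0.76), 3553 with a minimum mean of 50 (258 of the 709 shared) and 117 with a minimum of 200, and 600 to 1506 without 1 of the 4 libraries. The count of regions higher in LT-HSC Npm1 than in WT, 133, became 48 with library totals, 50 and 25 with minimums of 50 and 200, 0 with the signal share covariate and 38 to 115 without 1 library. Over all tested regions the count higher in LT-HSC Npm1 than in WT was 756 of 24627. It became 160 with library totals and 0 with the covariate. With the minimums of 50 and 200 it became 849 of 58236 and 302 of 12185. Of the 709 regions 58 were tested at the minimum of 200, so the 25 called there are out of 58. In LT-HSC DN against Npm1 the 1 higher call, beside 1125 over all tested regions, became 17 beside 8097 with library totals. It became 2 beside 1843 and 0 beside 237 with the minimums of 50 and 200. It became 0 beside 475 with TMM, 0 beside 540 with all 14 libraries and 0 beside 0 with the covariate. Leaving out any 1 LT-HSC DN or Npm1 library did not raise it. LT-HSC DN against WT, with no call in the main fit, gave calls in some fits without 1 library. The median of the set there ran from -0.10 without LT-HSC WT A to 0.30 without LT-HSC WT B. MPP3 against LT-HSC gave 11 with library totals and 0 to 2 without 1 library, and the difference of Dnmt3a effects gave 3 with the minimum of 200 and 0 to 7 without 1 library. For MPP3 against LT-HSC, the 11 with library totals stood beside 8951 called higher over all 24627 tested regions. For the difference of Dnmt3a effects, the 3 with the minimum of 200 were all 3 higher calls among 12185 tested regions. The 74 regions lower in LT-HSC DN than in Npm1, beside 347 over all tested regions, became 33 beside 122 with library totals. They became 13 beside 139 and 22 beside 164 with the minimums of 50 and 200 (58 of the 709 were tested at 200). With all 14 libraries they became 29 beside 143, and with the covariate 0 beside 0. The 80 lower in MPP3 than in LT-HSC, beside 293, became 21 beside 134 and 24 beside 193 with the same minimums. With all 14 libraries they became 2 beside 5, and with the covariate 0 beside 0. The medians of the set in these 2 comparisons were -0.02 and -0.10 with library totals, where all tested regions moved to 0.87 and 0.75. With a replicate block on the letters A and B, LT-HSC Npm1 against WT gave 135 higher calls, beside 752 over all tested regions. LT-HSC DN against Npm1 gave 1 higher beside 1033, and no other count of higher calls in the set changed. Nothing in the labels says what the letters share. Deviations of same-lettered libraries correlated at -0.04, -0.04 and 0.06 over the 3 pairs of LT-HSC groups compared, and from -0.25 (LT-HSC WT with MPP3 WT) to 0.42 (MPP3 Npm1 with MPP3 WT) over all pairs of groups, so they were not treated as pairs. The library left out, where it leaves a group with 1 library, was assumed to vary like the others. The cause of these changes was not tested. Depth is known for 8 of 14 libraries, so differences at low signal cannot be given a counting error.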
